A study of Mus musculus with 22 samples.

Results

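The mRNAs of the small ribosomal subunit proteins were followed in RNA from the CA1 field of the mouse hippocampus. Members were all rows of the deposited tables whose symbol is Rps with a number, with or without a final a or x, together with Rpsa. This rule found 30 genes among 29848. Rps23 was not analysed here, and the ribosomal genes Fau and Gnb2l1, whose symbols follow another pattern, were kept apart. Every animal came from the Camk2a-tTA/tetO-EGFP-L10a double transgenic cross on C57BL/6. In it the Camk2a promoter drives a transactivator in excitatory forebrain neurons, which switches on a GFP fusion of the large subunit protein L10a, so that an antibody to GFP (HtzGFP-19C8) pulls down tagged ribosomes with the mRNA they hold. The members' own transcripts are therefore endogenous, and none of them encodes the tagged protein. Mice either stayed in their home cage or were fear conditioned, and CA1 was dissected into a dendrite and a soma part. Ages and the time after training are not given in the labels used here. Each combination of behaviour and location has 2 immunoprecipitates, 8 in all, and 3 supernatants hold the RNA that stayed unbound (1 from home cage dendrites, and after fear conditioning 1 from dendrites and 1 from soma, all numbered 2). These 11 libraries were sequenced once in paired-end and once in single-end mode, which makes 22 samples. No label ties a library to its own animal, and the spread behind the p-values may be technical.

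The small subunit binds mRNA, carries the decoding site and scans to the start codon. Its proteins are grouped here by whether they sit in the head of the subunit or in its body and platform. Transcripts of ribosomal protein genes generally begin with a C followed by further pyrimidines, the 5′ terminal oligopyrimidine (TOP) motif, through which mTOR signalling controls their translation. In neurons, mRNAs of ribosomal proteins are known to be present in dendrites and axons as well as in the cell body. Phosphorylation of the body protein encoded by Rps6 is widely used as a sign of neuronal activity.

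The stretch around each transcription start is where such a motif would lie. RefSeq start sites of build GRCm38.p6 were used for 22 members, and the 15 bases before and the 15 bases from the start were searched on the gene's strand for an unbroken run of at least 8 letters that are C or T. Such a run was found in 8 of the 22 members (36.4%) and in 13.9% of 27025 genes searched the same way. A run of at least 8 letters that are A or G, the same motif on the other strand, was found in 0 of the 22 members and in 15.3% of all genes. Printed here are 4 members with a long run and, for contrast, Rpsa and Rps15, the 2 members with the highest levels in the immunoprecipitates, which have no run of that length in this window. Capitals mark the longest run.
Rps10, chr17:27635230-27635259, minus strand: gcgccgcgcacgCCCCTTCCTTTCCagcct
Rps6, chr4:86857353-86857382, minus strand: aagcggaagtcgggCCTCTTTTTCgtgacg
Rps24, chr14:24490663-24490692, plus strand: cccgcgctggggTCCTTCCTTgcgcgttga
Rps27, chr3:90213634-90213663, minus strand: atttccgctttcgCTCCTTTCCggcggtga
Rpsa, chr9:120127751-120127780, plus strand: gtgggttatttaaggacgtcaTTTCCggcc
Rps15, chr10:80292416-80292445, plus strand: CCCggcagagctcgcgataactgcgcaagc
The run was 13 letters long in Rps10, 10 in Rps6 and 9 in Rps24 and Rps27, against 5 in Rpsa and 3 in Rps15. These are letters of an annotation and not mapped starts, and a window without a run says only that these letters are not in it. The windows are from a later build than the files, so they were used for sequence only.

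In the authors' mm9 annotation the 30 genes lie on 12 chromosomes, with Rps4x counted at its models on chromosome 6, and their longest models span 334 to 1318 bases, with a median of 640 against 1273 for all genes. Rpsa is at chromosome 9, 120037376 to 120040810, and Rps6 at chromosome 4, 86500408 to 86503271. Names of the RefSeq table list 116 pseudogenes for 22 of the members, with 23 for Rps12, 13 for Rps19 and 12 each for Rps2 and Rpsa. Near-identical copies can share reads, and the authors' treatment of such reads is not stated in the labels, so levels of these members are uncertain. Rps4x carries models on chromosomes 6 and X, and its value joins both. Rps2 shares exons and strand with Gm10653. In the single-end tables Rps2 was at most 4.07e-06 FPKM in every library while Gm10653 reached 12.3, and in the paired-end tables Rps2 was 3.17 to 520 and Gm10653 at most 12.2. Rps2 is therefore described from the paired-end run only, and its single-end value says nothing about its level.

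The deposited values are FPKM, fragments per kilobase and per M mapped fragments. The annotation part used covers the coding sequence with the 5′ UTR before it and the first stretch of the 3′ UTR after it. Spacing of the low values gave a depth of 5.59 to 35.5 M fragments in paired-end mode and of 0.515 to 10.6 M reads in single-end mode, with the home cage dendrite 1 library the shallowest paired-end run and home cage dendrite 2 the shallowest single-end run. In the paired-end immunoprecipitates 19 of the 240 member values were listed at 0 (7.92%, against 77.8% over all genes), and 49 rested on fewer than about 10 fragments. In home cage dendrite 1 and home cage soma 1, 14 of the 30 members rested on fewer than about 10. Levels between libraries are given as scaled FPKM, in which the factor of a library is the median, over genes, of its FPKM relative to the gene's geometric mean. That median ran over 870 genes above 0 in all 8 immunoprecipitates, or over 765 genes above 0 in all 11 libraries where supernatants are compared. Rpsa takes part in that median as 1 gene among many.

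Rpsa, which encodes a small subunit protein that is also known as the laminin receptor, stood above all other members in nearly every library. Its deposited paired-end FPKM was 625 and 741 in home cage dendrite 1 and 2, and 2907 and 1050.5 in fear conditioned dendrite 1 and 2. In the soma immunoprecipitates it was 998 and 21410 in home cage 1 and 2, and 958 and 344 in fear conditioned 1 and 2. In the supernatants it was 109 in home cage dendrite 2, 252 in fear conditioned dendrite 2 and 272 in fear conditioned soma 2. In the paired-end run Rpsa ranked first among the members in every library except home cage dendrite 1, where Rps15 was 626 FPKM. The value in home cage soma 2 was 73.96% of the summed FPKM of that library. The single-end run of the same library gave Rpsa as 830 FPKM, 1.57% of its sum. The other single-end values were 940, 558, 2002 and 1531 in the 4 dendrite immunoprecipitates in the same order, and 45.7, 140 and 44.3 in home cage soma 1 and fear conditioned soma 1 and 2. Home cage soma 2 was thus the highest soma library in both runs. In scaled FPKM, home cage soma 2 and the next soma library were 80307 and 1672 in the paired-end run and 3019 and 97.0 in the single-end run. In the single-end run Rps27, at 62.6 FPKM, stood above Rpsa in home cage soma 1. Rps28 did so at 57.1 FPKM in fear conditioned soma 2.

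With Rpsa, the 30 members took 4.81 to 8.39% of the summed paired-end FPKM in the dendrite immunoprecipitates. In the soma immunoprecipitates they took 7.63%, 76.1%, 5.89% and 1.80% in home cage 1, home cage 2, fear conditioned 1 and fear conditioned 2. In the supernatants they took 1.78 to 3.36%. With Rpsa left out of both sums, the other 29 members took 5.86%, 4.23%, 2.83% and 2.79% in home cage dendrite 1 and 2 and fear conditioned dendrite 1 and 2. The soma immunoprecipitates then had 1.20%, 8.04%, 2.94% and 0.864%, and the supernatants 1.34%, 2.22% and 1.33%. Without Rpsa the dendrite shares were 3.92 ± 1.45% (SD, n = 4) and the soma shares 3.26 ± 3.31% (SD, n = 4), so the difference lay within the spread of the libraries. Home cage soma 2 remained the library with the highest paired-end share without Rpsa. In the single-end run, with the void value of Rps2, the dendrite shares in the same order were 0.247%, 0.565%, 3.82% and 0.844%. Both home cage dendrite libraries thus lay above both fear conditioned ones in the paired-end run and below them in the single-end run. The single-end soma shares were 0.131%, 0.707%, 1.73% and 0.374%.

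**Figure D1:**
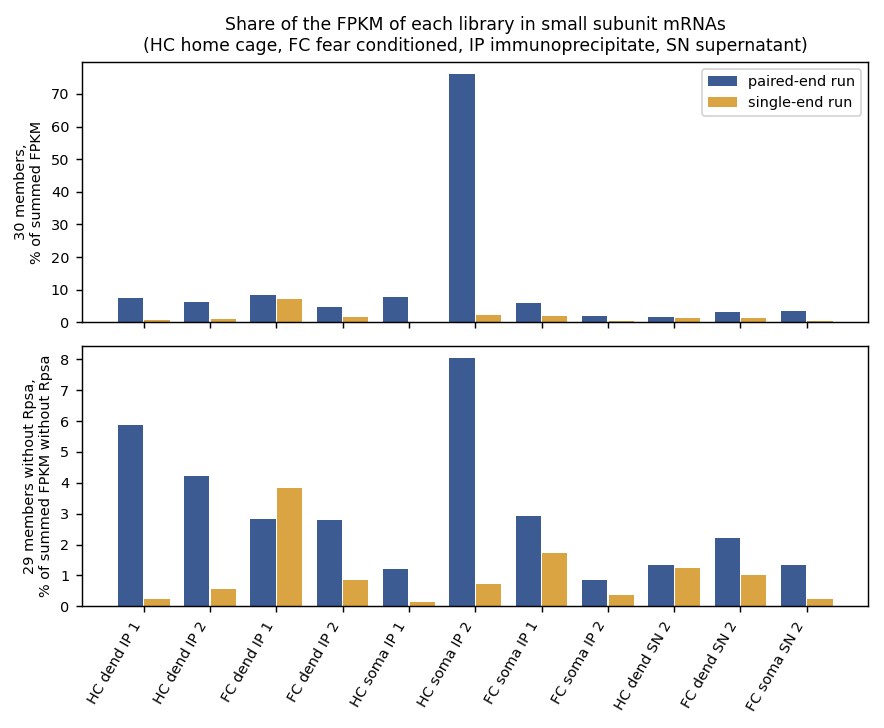
Share of the summed FPKM of each library that falls on the small subunit mRNAs, in percent, for the 30 members (top) and for 29 members with Rpsa left out of both sums (bottom). Blue bars are the paired-end run and gold bars the single-end run of 1 library. The paired-end bar of home cage soma 2 reaches 76.1% with Rpsa and 8.04% without it.

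The members do not share 1 level, although each protein is present once in a subunit. Over the 8 paired-end immunoprecipitates the 8 members with the highest mean scaled FPKM were Rpsa, Rps15, Rps25, Rps2, Rps27, Rps6, Rps3a and Rps24. The member next to Rpsa differed between libraries. It was Rps27 at 397 FPKM in home cage dendrite 2. After fear conditioning it was Rps21 at 234 in dendrite 1 and Rps25 at 298 in dendrite 2. In the soma immunoprecipitates it was Rps27 at 42.2 in home cage 1, Rps25 at 166 in home cage 2, Rps19 at 250 in fear conditioned 1 and Rps6 at 159 in fear conditioned 2. In the supernatants it was Rps29, Rps27 and Rps15. Some genes moved through most of the order: Rps25, a head protein needed for initiation at several internal ribosome entry sites, ranked from 2 to 22 among the 30 members in the immunoprecipitates, and Rps27 from 2 to 24. Rps6 ranked from 2 to 22, with a median of 5, and Rps15 from 1 to 11. Neighbours in the order of mean level overlapped in their ranges, Rpsa (200 to 80307 scaled FPKM) and Rps15 (12.2 to 578) included.

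At the low end in the paired-end immunoprecipitates stood Rps13, Rps28, Rps18, Rps7 and Rps10. Rps13, a body protein, was the only member below the minimum of 1 in mean scaled FPKM and was not tested with the others. It was 1.80, 0, 0.563 and 2.70 in home cage dendrite 1 and 2 and fear conditioned dendrite 1 and 2, and at most 1.84 in soma. In the supernatants it was at most 0.0544, again the lowest member or next to it. No member was listed at 0 in 5 or more of the 8 immunoprecipitates.

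**Figure D2:**
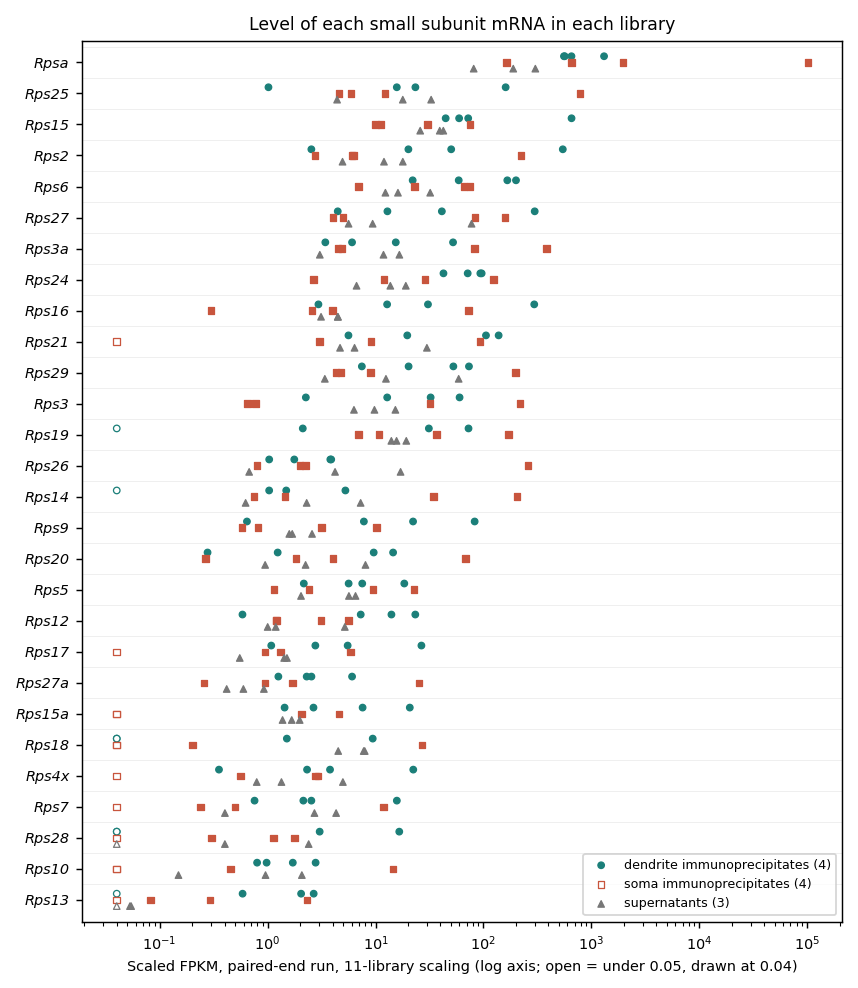
Scaled FPKM of 28 of the 30 members in the paired-end run of each library (log axis), ordered by mean level over the immunoprecipitates. Teal circles are the 4 dendrite immunoprecipitates, red squares the 4 soma immunoprecipitates and grey triangles the 3 supernatants, scaled over all 11 libraries. Open symbols stand for values under 0.05 and are drawn at 0.04. Rpsa is the highest member, and most other members spread over 1 or more steps of the log axis within 1 group.

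The order of the levels differed between runs of the same library. Spearman's rho over 29 members, without Rps2 and its void single-end value, was 0.219 to 0.708 between the paired-end and the single-end run, with a median of 0.474 over the 11 libraries. The members share a library and are no replicates. Over all 30 members in paired-end values, rho was 0.256 to 0.661 between replicate immunoprecipitates of 1 group, 0.0407 to 0.775 between other immunoprecipitates, and 0.583 to 0.740 between supernatants. The sum of the members without Rpsa was also set against the summed FPKM of 46 large subunit genes. In the paired-end run it was 0.373 to 1.52 times that sum in the immunoprecipitates and 0.717 to 1.11 times in the supernatants. In the single-end run, with the void value of Rps2, it was 0.167 to 0.708 times in the immunoprecipitates and 0.403 to 0.554 times in the supernatants. The ratio thus differed between the runs.

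The first comparison asked which members differ in ribosome-bound RNA between dendrites and cell bodies. Of the 29 members tested, 20 had a positive log2 difference, dendrite minus soma, and the median was 0.78. Over all 2928 genes tested 42.6% lay above 0, with a median of -0.30. With Rpsa left out of the list the count was 20 of 28 and the median 0.85, and with Rpsa left out of the scaling the median of the 29 members was 0.78. The head proteins had 10 of 14 above 0 with a median of 0.40, and the body and platform proteins 10 of 15 with a median of 1.05. Differences are on the scale of log2(scaled FPKM + 1), which understates the change of low genes. No member passed at an adjusted limma p of 0.05, as was the case for 0% of all genes. At an unadjusted p under 0.05 stood 2 members, 1 in each direction (all genes: 1.88% higher and 2.87% lower).

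Of the 29 members tested, 1 had all 4 dendrite libraries above all 4 soma libraries and 0 had them below (all genes: 1.71% and 1.74%). Of 28 members tested in both runs, 16 had the same sign (all genes: 75.2%). Exact two-sided permutation tests over the libraries, whose smallest p for 4 against 4 is 0.0286, were run for 13 members, and adjusted values are over these 13.

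Rps15, a head protein, and Rps24, a body protein with several splice forms, had positive differences. Rps15 was 578, 79.7, 42.9 and 60.01 in home cage dendrite 1 and 2 and fear conditioned dendrite 1 and 2, and 25.8, 59.5, 12.4 and 12.2 in the soma libraries in the same order. Only home cage soma 2 reached into the dendrite range, and the difference was 2.19 (SE 1.07, exact p = 0.0571, 0.371 adjusted). Rps24 was 84.9, 103, 40.9 and 72.0 in dendrite and 24.4, 97.8, 13.2 and 3.29 in soma, a difference of 1.87 (SE 1.07, exact p = 0.114, 0.495 adjusted), again with home cage soma 2 inside the dendrite range. Rps21, a body protein, was 122, 21.7, 101 and 5.66 against 0, 74.0, 3.33 and 11.1, a difference of 2.23 (SE 1.52, exact p = 0.229). The single-end run gave 1.26 for Rps15, 1.82 for Rps24 and 1.93 for Rps21.

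The named members with negative differences were high in 1 or 2 of the 4 soma libraries. Rps14, a platform protein, was at most 5.05 (fear conditioned 1), and at 0 in home cage 1, in dendrite and 29.2, 162, 0.821 and 1.78 in soma, so that both home cage soma libraries were high and both fear conditioned ones lay within the dendrite range (log2 difference -2.40, SE 1.02, unadjusted limma p = 0.0362, exact p = 0.257). Rps19, a head protein mutated in Diamond-Blackfan anaemia, was 0, 34.4, 69.8 and 2.14 against 9.20, 29.002, 188 and 8.56 (-1.53, SE 1.55, exact p = 0.429). Rps3a, a body protein, was 13.6, 3.78, 5.82 and 52.7 against 3.83, 304, 90.8 and 5.99 (-1.30, SE 1.51, exact p = 0.429), and without home cage soma 2 its difference turned to 0.25. Rps25, Rps2 and Rps27 overlapped widely. Rps25 was 0.898, 25.8, 15.1 and 162 against 3.88, 622, 13.5 and 7.29 (-0.36, exact p = 0.857), with its highest value in home cage soma 2. Rps2, at the mRNA entry side, was 479, 55.4, 19.4 and 2.56 against 5.31, 177, 6.70 and 3.39 (1.42, exact p = 0.486). Rps27 was 3.94, 329, 39.5 and 12.99 against 70.7, 3.18, 175 and 6.16 (0.32, exact p = 0.829).

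Rpsa differed in sign between the runs. In the paired-end run it was 577, 615, 1259 and 571 in dendrite and 1672, 80307, 723 and 200 in soma, a log2 difference of -1.56 (SE 0.98, exact p = 0.571). Single-end values were 1236, 378, 1195 and 1176 in dendrite and 63.9, 3019, 97.0 and 21.9 in soma, a log2 difference of 2.64 (exact p = 0.143). There the 3 soma libraries other than home cage soma 2 lay below every dendrite library. In the paired-end run only fear conditioned soma 2 did. Rps27a, which encodes a ubiquitin fused to a head protein, was 5.35, 2.54, 1.21 and 2.57 against 0.218, 20.02, 1.04 and 2.09, and its difference was 0.03 (SE 1.04, exact p = 0.971). Rps6 was 177, 183, 56.6 and 22.3 against 19.4, 5.52, 72.8 and 92.5 (1.39, SE 1.02, exact p = 0.286), and its single-end difference was -0.50.

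**Figure D3:**
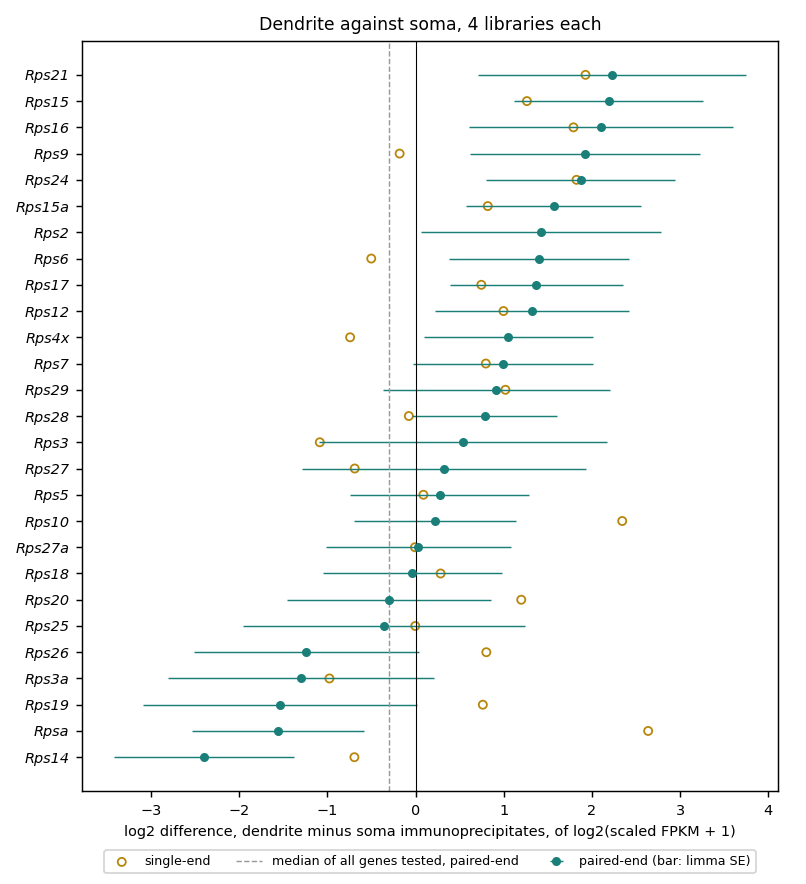
Log2 difference of 27 of the 29 members tested, dendrite minus soma immunoprecipitates, 4 libraries each. Filled points with bars are the paired-end estimate and its limma standard error, open circles the single-end estimate (none for Rps2), and the dashed line the median of all genes tested. Of the 27 filled points 19 lie above 0. Rps6, Rps9, Rps3, Rps4x, Rps26, Rps19 and Rpsa are among the 12 members whose open circle lies on the other side of 0.

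Other lists of the translation machinery were read in the same fit, with no p of their own. The 44 large subunit mRNAs tested had 30 above 0 and a median of 0.67. Of 14 TOP mRNAs that encode no ribosomal protein, such as Eef1a1 and Eef2, which deliver aminoacyl-tRNA and move the ribosome along, 13 lay above 0 with a median of 1.17. The initiation factors that act on the small subunit had 8 of 15 above 0 and a median of 0.14, and the factors that assemble it 7 of 10 and 0.66. The proteins of the mitochondrial small subunit, which are encoded by a separate gene family, had 2 of 7 above 0 and a median of -0.92. None of these genes passed. No cell type marker passed. The 11 astrocyte markers summed to a scaled FPKM of 87.3 to 226 in dendrite and 2.40 to 55.9 in soma immunoprecipitates, with 7 to 11 and 5 to 10 of them above 0, with Aldh1l1 at 0 in 3 dendrite and 3 soma libraries. All 7 astrocyte markers tested were positive, with a median of 2.99. The 7 pyramidal neuron markers summed to 67.2 to 534 and 35.8 to 133, yet only 2 of the 6 tested were positive, with a median of -0.94. In home cage dendrite 1, Camk2b, Slc17a7, Neurod6, Nrgn and Neurod2 were at 0. Oligodendrocyte markers summed to 5.77 to 60.8 and 0.955 to 64.2, and 2 of the 4 tested were positive with a median of 0.14. Interneuron markers had 2 of 4 positive (median 0.17) and microglia markers 1 of 3 (median -0.15). The part of these marker differences in the members' values was not tested. In such bulk RNA fewer cells of a type and less RNA per cell cannot be told apart.

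The share of home cage soma libraries in this comparison was large. Without home cage soma 1 the members' median difference was 0.12 with 16 of 30 tested members above 0, and without home cage soma 2 it was 1.18 with 25 of 29. The median over all genes was -0.21 and -0.22 in these fits.

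The second comparison asked what fear conditioning changes in the ribosome-bound RNA of dendrites, with 2 libraries against 2. Of the 29 members 20 had a positive difference, fear conditioned minus home cage, and the median was 0.62. Over all genes 56.7% lay above 0 and the median was 0.08. With Rpsa left out of the list the count was 19 of 28 and the median 0.76, and with Rpsa left out of the scaling the median of the 29 members was 0.62. In the single-end run 27 of 29 members lay above 0 with a median of 1.73, against a median of 0.15 over all genes. Of the 30 members, 18 in home cage dendrite 1 and 22 in home cage dendrite 2 rested there on fewer than about 10 reads. In all, 20 of 28 members tested in both runs had the same sign (all genes: 68.7%). No member passed, nor did any other gene (0%), and 2 members had an unadjusted limma p under 0.05, 1 in each direction (all genes: 1.95% higher and 1.33% lower). In 7 members both fear conditioned libraries lay above both home cage libraries, and in 5 they lay below (all genes: 24.5% and 8.61%). An exact test of 2 against 2 cannot go below 0.333 and was not run. In the same fit oligodendrocyte markers had 4 of 4 positive (median 1.41), pyramidal neuron markers 5 of 6 (0.49), interneuron markers 3 of 4 (0.88), microglia markers 2 of 3 (0.43) and astrocyte markers 2 of 7 (-0.41), and their part in the members' values was not tested.

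The named members on either side differed in level. Rps28, a head protein at the mRNA exit channel, was at 0 in home cage dendrite 1 and 2 and was 2.91 and 16.7 in fear conditioned 1 and 2, so no fold is given. In the single-end run it was 21.0 and 0 in home cage and 115 and 129 in fear conditioned dendrite. Rps20, a head protein, was 1.09 and 0.306 against 9.23 and 14.7. The log2 difference was 2.94 (SE 1.63), with an adjusted limma p of 0.944, and 0.11 in the single-end run. These home cage values rest on few fragments in the shallow home cage dendrite 1 library.

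On the other side, Rps2 was 479 and 55.4 in home cage dendrite 1 and 2 and 19.4 and 2.56 in fear conditioned 1 and 2. Its log2 difference was -4.27 (SE 1.92), with an unadjusted limma p of 0.0453 and an adjusted p of 0.944. Rps15 was 578 and 79.7 against 42.9 and 60.01 (-2.06, SE 1.51), and its single-end difference was -1.22. Rps6 was 177 and 183 against 56.6 and 22.3 (-2.31, SE 1.44, adjusted p = 0.944). Its single-end values went the other way, with 9.58 and 18.3 in home cage and 44.2 and 34.3 in fear conditioned dendrite, a difference of 1.48. Rpsa was 577 and 615 against 1259 and 571 (0.51, SE 1.38), and its sign rested on fear conditioned dendrite 1, without which the difference was -0.06. Rps27a was 5.35 and 2.54 against 1.21 and 2.57 (-0.76, SE 1.48), with 2.68 in the single-end run.

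In soma the members lay mostly on the other side. Of 29 members 7 had a positive difference, fear conditioned minus home cage, and the median was -1.01, whereas 61.9% of all genes lay above 0 with a median of 0.43. With Rpsa left out of the list the count was 7 of 28 and the median -0.99, and with Rpsa left out of the scaling the median of the 29 members was -1.02. The head proteins had 2 of 14 above 0 and a median of -1.55, and the body and platform proteins 5 of 15 and -0.60. The large subunit had 11 of 44 above 0 and a median of -0.91, the initiation factors 7 of 15 and -0.05, and the other TOP mRNAs 8 of 14 and 0.42. Of the cell type markers tested here, pyramidal neuron markers had 5 of 6 positive (median 1.42), interneuron markers 4 of 4 (1.03), oligodendrocyte markers 3 of 4 (0.90), microglia markers 2 of 3 (0.98) and astrocyte markers 3 of 7 (-0.24), and their part in the members' values was not tested. In the single-end run 6 of 29 members lay above 0 with a median of -0.75, against 0.34 over all genes, and 21 of 28 had the same sign in both (all genes: 75.2%). No member passed (0% of all genes). At an unadjusted limma p under 0.05 stood 2 members, both lower (all genes: 1.47% lower and 5.94% higher), and 6 members had both fear conditioned libraries below both home cage libraries while 2 had them above (all genes: 7.99% and 33.4%).

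These values depended on which home cage library was used. Without home cage soma 2 the members' median was 0.18 with 17 of 29 above 0, and without home cage soma 1 it was -3.04 with 7 of 30, with all-gene medians of 0.68 and 0.86. In FPKM as deposited it was 0.27, and with libraries brought to an equal summed FPKM that includes Rpsa it was 0.10, against all-gene medians of 1.21 and 1.00. Brought to an equal sum without Rpsa, it was -0.81 against 0.65. The sign of the members' median thus turned with the scaling and with 1 library, and in each setting tried, leave-one-out included, the members' median lay below that of all genes, with members minus all genes between -3.90 and -0.49. In the paired-end run 5006 and 3220 genes were above 0 in home cage soma 1 and 2, and 9267 and 9211 in fear conditioned soma 1 and 2. The part of this in the all-gene median was not tested.

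Rpsa and Rps14 had the largest negative differences in soma. Rpsa was 1672 and 80307 in home cage soma 1 and 2 and 723 and 200 in fear conditioned soma 1 and 2. Its log2 difference was -4.92 (SE 1.38), with an unadjusted limma p of 0.00358 and an adjusted p of 0.568. Single-end values were 63.9 and 3019 against 97.0 and 21.9, so that the groups overlapped. Rps14 was 29.2 and 162 against 0.821 and 1.78. Its log2 difference was -4.96 (SE 1.45), with an unadjusted limma p of 0.00466 and an adjusted p of 0.568. Its single-end values were 52.6 and 1.94 against 1.55 and 1.95, so the high value of home cage soma 2 was not seen again in that library's single-end run while that of home cage soma 1 was. Rps26, which lies at the mRNA exit channel, was 1.91 and 205 against 2.20 and 0.984 (-3.28, SE 1.81), a difference made by home cage soma 2 alone.

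Fewer members were higher after fear conditioning in soma. Rps6 was 19.4 and 5.52 in home cage and 72.8 and 92.5 in fear conditioned soma. The difference was 2.85 (SE 1.44, adjusted p = 0.568 in limma). Its single-end values were 25.0 and 43.8 against 77.8 and 13.4, a difference of -0.02. Rps15a, a body protein, was listed at 0 in both home cage soma libraries and was 5.03 and 2.55 in fear conditioned soma, so no fold is given. Rps19 was 9.20 and 29.002 against 188 and 8.56 (1.28, SE 2.19), a positive difference made by fear conditioned soma 1. Rps27a was 0.218 and 20.02 against 1.04 and 2.09 (-1.01, SE 1.48).

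**Figure D4:**
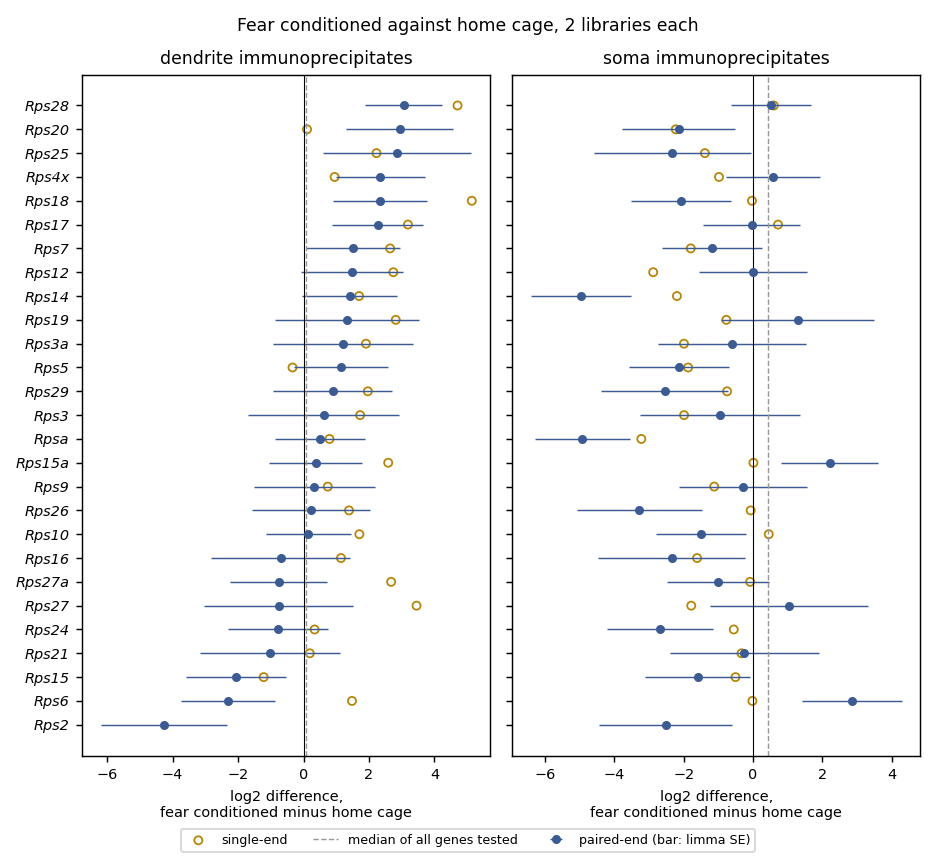
Log2 difference of 27 of the 29 members tested, fear conditioned minus home cage, in dendrite (left) and soma (right) immunoprecipitates, 2 libraries each. Filled points with bars are the paired-end estimate and its limma standard error, open circles the single-end estimate (none for Rps2), and dashed lines the median of all genes tested. Filled points lie above 0 in 19 of 27 cases on the left and 6 of 27 on the right. Rps28 (left) and Rps15a (right) were listed at 0 in both home cage libraries, so their points depend on the pseudocount.

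Whether the 2 effects differ was asked of the difference itself, dendrite minus soma. Of 29 members 22 were positive with a median of 1.77, whereas 42.3% of all genes were positive with a median of -0.57. Single-end values gave 28 of 29 positive, with a median of 2.58, and 23 of 28 had the same sign in both (all genes: 72.8%). Most home cage dendrite values of the single-end run rested on few reads, as given for fear conditioning in dendrites. The head proteins had 13 of 14 above 0 and the body and platform proteins 9 of 15, and the large subunit had 33 of 44. No member passed and no other gene did (0%). The 5 members at an unadjusted limma p under 0.05 were Rps14, Rpsa, Rps20 and Rps18 on the positive side and Rps6 on the negative side (all genes: 0.956% positive and 2.53% negative). Rps14 had 6.37 (SE 2.05, adjusted p = 0.716), Rpsa 5.43 (SE 1.95, adjusted p = 0.716) and Rps25 5.18 (SE 3.20, adjusted p = 0.716). Rps6 had -5.15 (SE 2.04, adjusted p = 0.716) in the paired-end run and 1.502 in the single-end run, so no direction held in both runs. Rps27 (-1.80) and Rps15a (-1.84) likewise turned to 5.24 and 2.58 in the single-end run. Without home cage soma 2 the median was 0.97, and without home cage soma 1 it was 2.62.

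The remaining comparisons set bound against unbound RNA. Values here are scaled over all 11 libraries and the fits hold behaviour as a covariate. In dendrites 23 of 29 members had a positive difference, immunoprecipitate minus supernatant, and the median was 0.90. Over all 2938 genes 43.2% lay above 0 and the median was -0.11. Without Rpsa in the list the count was 22 of 28 and the median 0.87. Without the home cage supernatant it was 0.39 with 17 of 29 above 0 (all genes: 49.3%, median -0.02), and without the fear conditioned one 1.35 with 23 of 29 (all genes: 46.2%, median -0.13). In the single-end run 24 of 29 were positive with a median of 1.12, and 19 of 28 had the same sign in both (all genes: 75.4%). No member passed, as against 2 of all genes (0.0681%), and no member had an unadjusted limma p under 0.05 (all genes: 0.987% higher and 3.37% lower). The large subunit had 34 of 43 above 0 and a median of 0.68, and the other TOP mRNAs 13 of 14 and 1.17. Every tested astrocyte (9), oligodendrocyte (6) and microglia (4) marker was negative, with medians of -1.57, -1.94 and -1.54, and of these 2, 2 and 1 had an unadjusted limma p under 0.05. The 7 pyramidal neuron markers summed to 67.2 to 534 in the dendrite immunoprecipitates, with 2 to 7 of them above 0, and to 95.5 and 142 in the dendrite supernatants. The 9 interneuron markers summed to 0.548 to 16.5 in the dendrite immunoprecipitates and to 20.1 and 38.8 in the dendrite supernatants. The part of these cell types in the members' values was not tested.

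In 4 members every dendrite immunoprecipitate lay above both dendrite supernatants (all genes: 4.39%), and in 0 all lay below (all genes: 18%). Rpsa was 654, 557, 1311 and 567 in the immunoprecipitates and 81.2 (home cage) and 189 (fear conditioned) in the supernatants. Its log2 difference was 2.53 (SE 1.57, adjusted p = 1 in limma), and 3.37 in the single-end table. The groups did not overlap in the single-end run either, at 1423, 418, 1316 and 1350.1 against 60.01 and 157. Rps24 was 96.3, 93.6, 42.6 and 71.5 against 19.1 and 13.7 (2.09, SE 1.32). Rps15 was 655, 72.3, 44.7 and 59.5 against 42.5 and 39.4 (1.36, SE 1.29), and Rps27a 6.06, 2.30, 1.26 and 2.55 against 0.596 and 0.418 (1.30, SE 1.13, single-end 1.81).

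Other members with large differences overlapped. Rps16, a head protein, was 296, 2.96, 12.8 and 30.6 against 4.47 and 3.13 (2.49, SE 1.70, single-end 2.40), and Rps2 544, 50.3, 20.2 and 2.54 against 11.98 and 4.95 (2.11, SE 1.61). Rps6 was 200.3, 166, 59.0 and 22.1 against 16.1 and 32.1 (1.79, SE 1.40). On the negative side Rps18, a head protein, was listed at 0 in both home cage immunoprecipitates, was 9.42 and 1.51 in the fear conditioned ones, and was 7.77 and 7.94 in the supernatants (-1.97, SE 1.40, single-end -0.92). Rps19 (-0.77) and Rps26 (-0.70) turned sign in the single-end run, to 1.62 and 2.37.

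In soma 22 of 29 members were positive with a median of 0.68, against 57.1% of all genes and a median of 0.18. Only 1 soma supernatant exists, and the fit assumes that it varies like the other groups. As it is fear conditioned, differences against it are adjusted for a behaviour effect fitted over all groups. They need not match the difference between the values printed. Without Rpsa in the list the count was 21 of 28 and the median 0.64, and the single-end run gave 25 of 29 and 1.64, with the same sign in 19 of 28 (all genes: 69.1%). No gene passed (0%), and no member had an unadjusted limma p under 0.05 (all genes: 0.136% higher and 0.817% lower). Without home cage soma 2 the median was 0.16 with 16 of 29 above 0, beside an all-gene median of 0.15. With libraries brought to an equal sum that includes Rpsa it was -0.08 with 14 of 29 above 0, beside -0.29 and 40.9% for all genes. Rpsa was 1967, 101415, 657 and 163 in the soma immunoprecipitates and 303 in the supernatant (1.97, SE 2.11), with fear conditioned soma 2 below it. Rps20 was 1.83, 68.1, 4.02 and 0.266 against 0.949 (1.85, SE 2.05). Rps2 was 6.25, 223, 6.08 and 2.76 against 17.9 (-1.95, SE 2.15), and Rps7, a body protein, was 0, 11.9, 0.499 and 0.238 against 4.31 (-1.38, SE 1.65, single-end 0.99). Rps18 was at 0 in home cage 1 and fear conditioned 1, 27.0 in home cage 2 and 0.202 in fear conditioned 2, against 4.51 (-1.18, SE 1.88, single-end 1.49). Rps6 and Rps27a had differences of 1.34 (SE 1.88) and 0.48 (SE 1.52). Rps12 and Rps29 lay above the supernatant in all 4 immunoprecipitates and Rps4x below it in all 4 (all genes: 5.51% and 17.4%).

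**Figure D5:**
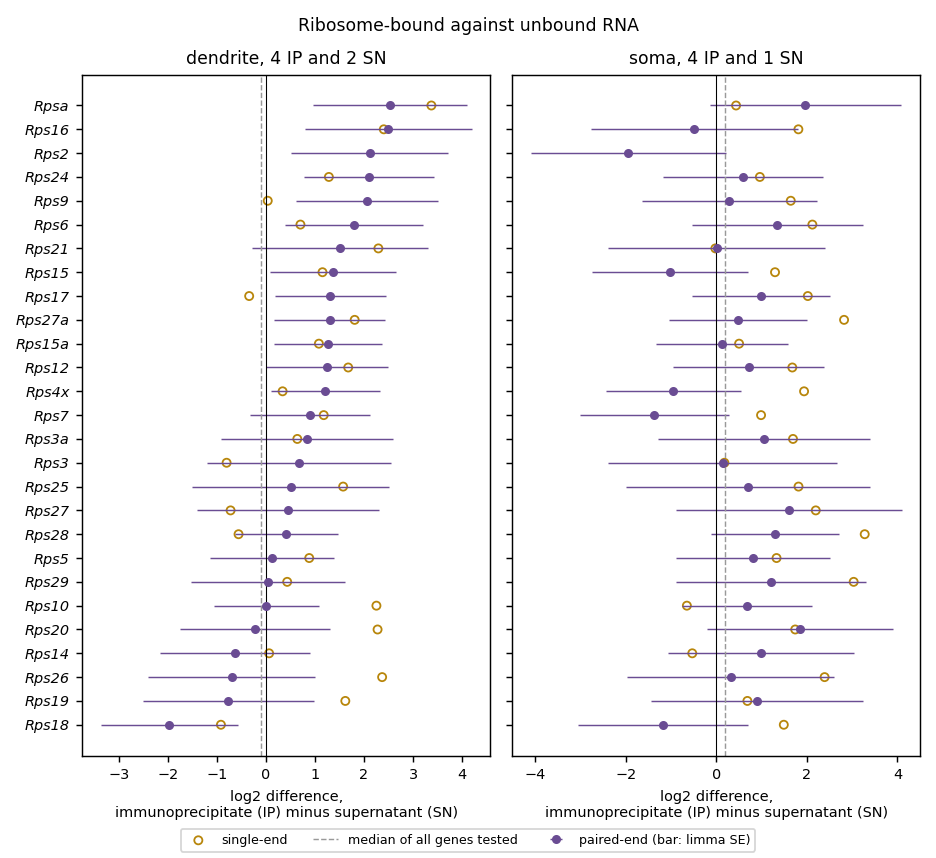
Log2 difference of 27 of the 29 members tested, immunoprecipitate minus supernatant, in dendrite (left, 4 against 2 libraries) and soma (right, 4 against 1). Filled points with bars are the paired-end estimate and its limma standard error, open circles the single-end estimate (none for Rps2), and dashed lines the median of all genes tested. Filled points lie above 0 in 22 of 27 cases on the left and 21 of 27 on the right.

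Between the unbound fractions of dendrite and soma, 2 libraries against 1, 17 of 29 members were positive with a median of 0.34, against 49% of all genes and a median of -0.03. The direction turned with 1 library: without the fear conditioned dendrite supernatant the median was -0.40 with 14 of 29 above 0 (all genes: 49.9%, median -0.0033), and without the home cage one 0.60 with 19 of 29. Groups did not overlap for 12 members higher and 8 lower (all genes: 33% and 38.5%). No gene passed (0%), no member had an unadjusted limma p under 0.05 (all genes: 0.681% higher and 0.374% lower), and the single-end run gave 22 of 29 and 0.89. Rpsa was 81.2 and 189 in the dendrite supernatants and 303 in soma (-2.14, SE 2.30), and Rps29, a head protein, 59.0 and 12.5 against 3.39 (2.06, SE 2.29). Rps2 was 11.98 and 4.95 against 17.9 (-2.67, SE 2.34), and Rps20 2.25 and 8.07 against 0.949 (1.72, SE 2.24). Here too the differences are adjusted for behaviour, and that of Rps2 is larger in size than its printed values alone would give. Every standard error was larger than the difference for Rpsa, Rps29 and Rps20. The differences were 0.95 for Rps6, -0.79 for Rps27a and -1.33 for Rps7, and the last 2 turned to 1.01 and 0.62 in the single-end run. Of 28 members tested in both runs 17 had the same sign (all genes: 71.1%). Every one of 9 astrocyte, 6 oligodendrocyte and 4 microglia markers tested was positive here, with medians of 2.92, 2.55 and 2.02, and their part in the members' values was not tested.

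The rest of the 3′ UTR, which the authors counted apart, is annotated for 10 of the members. Rps3, which encodes a head protein at the mRNA entry channel that also acts in DNA repair, was the only one above 0 there in all 8 paired-end immunoprecipitates, at 0.102 to 15.5 FPKM with a median of 10.5, and at 1.67 to 5.29 in the supernatants. In the single-end immunoprecipitates Rps3 was above 0 in 7 of 8, with a median of 2.62. Of the other 9, several differed between the runs, while Rps15a (3 of 8) and Rps6 (1 of 8) were above 0 equally often in both. In the paired-end immunoprecipitates the medians of these 9 were 0.131 or less, and 4 of them, Rps19, Rps25, Rps7 and Rpsa, were at 0 in all 11 paired-end libraries. In the single-end immunoprecipitates Rpsa was above 0 in 7 of 8 (median 1.99, highest 5.62), Rps12 in 7 (median 1.75, highest 12.3), Rps24 in 7 (median 1.19, highest 6.76), Rps9 in 6 (median 1.13, highest 8.16) and Rps19 in 4 (median 0.497, highest 18.4). Rps25 and Rps7 were at 0 in every library of both runs.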

How the data were processed

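RNA-seq of 11 libraries, each run paired-end and single-end (22 samples), was analysed from the FPKM tables the authors deposited. Per the submitters' processing notes, CASAVA 1.9, STAR 2.1.1d and Cufflinks 2.0.2 were used with mm9. The RNA was amplified with Nugen Ovation V2, per the labels' protocols. All mapped columns were used (0 left over). The paired-end table is the main one, and the single-end table holds technical repeats, never added as replicates. Mapped depth, read from the spacing of low FPKM, was 5.59 to 35.5 M (paired-end) and 0.515 to 10.6 M (single-end), so low members rest on few fragments.

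FPKM was scaled by median ratios, genes under a mean of 1 were left out, and log2(scaled FPKM + 1) was fitted with limma 3.58.1 in R 4.3.3, with a trend, over all genes with Benjamini-Hochberg adjustment. The immunoprecipitate fit has 4 groups of 2, and the fit with supernatants has behaviour as a covariate. Exact permutation tests used scipy 1.17.1. The immunoprecipitate fit was tried on simulated data for the dendrite against soma comparison only.

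Members and lists were chosen with earlier results of these data known. Named with values were Rpsa, Rps6 and Rps27a, the 8 members of highest mean level, the 3 largest differences in each direction per comparison, and members at 0 in 5 or more immunoprecipitates. For 2 of the 30 members only counts, sums and medians that include them are given, and their own values are not reported here. Members behind counts of 5 or fewer, Rps13, and members set beside others for their runs or ranks were named after their values were seen. Alternatives were other scalings, pseudocounts of 0.1 and 5, no minimum and a minimum of 5, robust moderation, the single-end table, replicate blocks and leaving out each library. Same-numbered immunoprecipitates did not deviate together (r -0.00098, 0.056, -0.017 and -0.0028 over 2928 genes), so no block entered their main fit. Supernatants were not part of this check, so it cannot decide on a block for bound against unbound RNA. The main fit with supernatants had no block either.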

Additional observations from a re-analysis of the deposited data

Results flagged for a closer look

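In 5 of 58 groups of 4 immunoprecipitates, 1 library stood apart from the other 3. The scale was log2(scaled FPKM + 1), or log2 for the members' sums, and the gap over range was above Dixon's 95% critical value of 0.829. Chance gives about 1 in 20 for a single group drawn from 1 population. Here each group pools home cage and fear conditioned libraries, and the groups share the same libraries. The count of 5 in 58 can therefore not be set against that rate. Rpsa was 1259 scaled FPKM in fear conditioned dendrite 1 and 571 to 615 in the others. The other 4 flags all fell on home cage soma 2. There Rps18 was 21.3 (others 0 to 0.248), Rps2 177 (3.39 to 6.70), Rps26 205 (0.984 to 2.20) and Rps29 157 (5.29 to 7.63). The paired-end share of Rpsa in that library was 73.96% of summed FPKM. Its FPKM were divided by a scaling factor of 0.267, the lowest among the immunoprecipitates, and the part of this in the flags was not tested.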

How the results depend on the processing

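Member counts that passed were 0 in all 7 comparisons under every setting tried. With a replicate block the members' median stayed at 0.62 for fear conditioning in dendrite and -1.01 in soma. With the labelled sample as a replicate block it stayed at 0.78 for dendrite against soma. The 8 immunoprecipitates are balanced over these blocks, so the blocks could change the p-values but not these medians. For bound against unbound in dendrite the median could move, and it was 1.25 with the labelled sample as a block and 0.90 without. No member's call changed. For fear conditioning in soma the median was 0.27 in FPKM as deposited, 0.098 at equal sums with Rpsa and -3.04 to 0.18 when 1 library was left out, and in dendrite it was 1.73 in the single-end table. The cause was not tested.

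Single members reversed as follows. Dendrite against soma: Rps25 0.57 as deposited, Rps27a -0.059 at equal sums without Rpsa and -0.15 at a pseudocount of 5, and in the single-end table Rpsa 2.64, Rps6 -0.50, Rps27a -0.0074, Rps19 0.76 and Rps27 -0.69. Fear conditioning, dendrite, single-end: Rps6 1.48 and Rps27a 2.68. Fear conditioning, soma: Rps27a 0.30 as deposited and 0.098 at equal sums, and single-end Rps6 -0.020 and Rps19 -0.77. Difference of the effects: Rps27a -0.478 as deposited, -0.65 at equal sums and -0.34 at a pseudocount of 0.1, and single-end Rps6 1.502, Rps15a 2.58 and Rps27 5.24. Bound against unbound, single-end: in dendrite Rps19 1.62 and Rps26 2.37, in soma Rps7 0.99 and Rps18 1.49, with Rps27a -0.083 in soma at equal sums. Supernatants, single-end: Rps27a 1.01 and Rps7 0.62.

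Leaving out 1 library gave these ranges. Dendrite against soma: Rps27a -1.03 to 1.18, Rps25 -2.17 to 1.43, Rps27 -1.14 to 1.92 and Rps3a -2.84 to 0.25. Fear conditioning: Rpsa -0.056 to 1.06 in dendrite, Rps27a -3.11 to 1.16 and Rps19 -0.87 to 3.43 in soma. Difference of the effects: Rps27a -1.93 to 2.34 and Rps27 -4.84 to 1.30. Bound against unbound: in dendrite Rps19 -1.74 to 0.41 and Rps26 -3.25 to 1.81, in soma Rps27a -0.094 to 0.96. The supernatant median ranged from -0.40 to 0.60.

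Over all genes, the 2 calls for bound against unbound in dendrite became 376 with no minimum and 10 in the single-end table, and the 0 calls in soma became 935 and 10, and between supernatants 924 and 6. For fear conditioning in soma the 0 calls became 102 to 135 without home cage soma 2 or either fear conditioned soma library. Depth limits low members: 49 of 240 immunoprecipitate values rest on fewer than about 10 fragments.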
